A study of Homo sapiens with 8 samples.

Results

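Intermediate CpG-dense tiles are 1-kb stretches of autosome that are rich in CpGs and yet were neither methylated nor unmethylated throughout when the time course began. The cells are HUES64, a widely used line of human embryonic stem cells. On every day alike the derivative measured here carries the genotype labelled DNMT1 knockout, and the libraries follow the withdrawal of DNMT1* from day 0 to day 7, with 1 reduced representation bisulfite sequencing (RRBS) library per day and no replicates. Days 1 to 7 are therefore set against day 0 of the same line, and no library of an unmodified line was used here. A tile became a member if 40 or more CpGs were listed in it, if 10 or more of these had at least 10 reads on each of days 0, 1, 2, 6 and 7, and if 30 to 70% of the pooled reads of days 0 and 1 were methylated. This held for 295 tiles, or 2.77% of the 10655 dense tiles covered well enough, out of 426058 autosomal tiles with any listed CpG. The members were thus chosen by their levels on days 0 and 1, which are given below as a description only.

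DNMT1 is the methyltransferase that restores CpG methylation on the newly made strand after DNA replication, and DNMT1* is the exogenous copy on which the line depends. Without it, methylation is diluted as the cells divide, except where other activities add it back. A population level near the middle can arise in different ways. In an imprinted region one parental copy is methylated and the other is not, so every CpG reads in between; in a tile that straddles the border of a CpG island, methylated flank and unmethylated island are averaged. RRBS reads CpGs near MspI cut sites, and it does not say here which reads came from which parental copy.

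The members were divided by the spread of CpG levels inside a tile on day 0. The division does not show how the middle level of a tile arose. In 89 tiles the SD of the CpG levels was below 15 percentage points, and these are called even. In the other 206 the SD was 15 points or more, and these are called mixed. The median SD was 11.6 points in even tiles and 28.9 points in mixed tiles. Of 3915 covered CpGs in even tiles, 76.4% stood between 30 and 70% on day 0, against 33.7% of the 8772 in mixed tiles. In mixed tiles 27.4% of CpGs stood at 20% or less and 22.7% at 80% or more.

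The difference can be read off single promoters. RefSeq promoter windows of the build GRCh38.p14, which run from 250 bases before to 50 bases after a gene's start, were matched to the deposited hg19 CpGs by their CpG spacing. The windows printed here lie wholly inside member tiles. CG is in capitals where the CpG was covered and had 30% or more of its reads methylated on day 0; every other CG, whether low or not covered, is in lower case. The first set shows even tiles, chosen as the window at the imprinted gene PLAGL1 and the windows in the even tiles with the least CpG spread on day 1. PLAGL1, a zinc finger transcription factor, is read from chr6:144008210-144008509, minus strand; CHAD, the cartilage matrix protein chondroadherin, from chr17:50468831-50469130, minus strand; SOD2, the mitochondrial superoxide dismutase, from chr6:159762232-159762531, minus strand.
PLAGL1: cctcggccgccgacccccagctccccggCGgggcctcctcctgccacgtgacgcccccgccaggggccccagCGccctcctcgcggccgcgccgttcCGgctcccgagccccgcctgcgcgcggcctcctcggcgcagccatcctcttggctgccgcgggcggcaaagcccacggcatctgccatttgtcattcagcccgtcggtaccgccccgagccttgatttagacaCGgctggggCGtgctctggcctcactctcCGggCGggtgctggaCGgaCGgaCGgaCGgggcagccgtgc
CHAD: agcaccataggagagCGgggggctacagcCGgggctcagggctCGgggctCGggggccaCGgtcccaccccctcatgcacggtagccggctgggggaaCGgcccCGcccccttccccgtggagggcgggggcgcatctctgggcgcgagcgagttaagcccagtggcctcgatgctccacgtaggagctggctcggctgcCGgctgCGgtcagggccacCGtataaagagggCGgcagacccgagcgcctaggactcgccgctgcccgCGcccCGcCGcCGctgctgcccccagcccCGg
SOD2: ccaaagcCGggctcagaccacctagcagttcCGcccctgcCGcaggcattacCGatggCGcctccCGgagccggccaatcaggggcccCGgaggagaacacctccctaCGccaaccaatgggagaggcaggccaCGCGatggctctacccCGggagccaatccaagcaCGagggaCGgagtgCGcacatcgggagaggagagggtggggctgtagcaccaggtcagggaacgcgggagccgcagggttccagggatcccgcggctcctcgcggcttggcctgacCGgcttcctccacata
In the CHAD window 16 of 19 covered CpGs reached 30%, with levels between 19.6% and 51.1%. In the SOD2 window 15 of 19 did, with levels between 23.8% and 51.0%. The PLAGL1 window was less regular, with 11 of 20 covered CpGs at 30% or more and levels between 0% and 55.1%.

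The second set shows mixed tiles cut into a high and a low side. It was taken from those where the best single cut by position took 80% or more of the variance of day 1 levels, 76 of 206. URB1 was chosen for covered CpGs on both sides of 30%, and the others for a low and a high mean on day 0. The contrast in this set therefore follows from the choice. URB1, a ribosome biogenesis factor, is read from chr21:32392963-32393262, minus strand, and its window crosses the cut. CFAP46, a cilium and flagellum protein, is read from chr10:132942521-132942820, minus strand. LOC105378572, an uncharacterised gene, is read from chr10:132943117-132943416, plus strand, and shares the 1-kb tile of CFAP46.
URB1: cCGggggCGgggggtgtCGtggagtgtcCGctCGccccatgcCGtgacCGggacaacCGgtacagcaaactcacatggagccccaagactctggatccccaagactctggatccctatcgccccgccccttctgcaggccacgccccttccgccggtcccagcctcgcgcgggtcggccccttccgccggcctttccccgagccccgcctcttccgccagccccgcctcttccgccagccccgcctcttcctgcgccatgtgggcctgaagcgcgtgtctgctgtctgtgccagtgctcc
CFAP46: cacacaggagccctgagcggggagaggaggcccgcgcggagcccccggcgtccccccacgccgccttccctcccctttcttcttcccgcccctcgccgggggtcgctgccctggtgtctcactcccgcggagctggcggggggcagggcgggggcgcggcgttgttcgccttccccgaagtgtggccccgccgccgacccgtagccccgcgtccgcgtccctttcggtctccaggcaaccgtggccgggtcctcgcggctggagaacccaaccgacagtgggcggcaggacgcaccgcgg
LOC105378572: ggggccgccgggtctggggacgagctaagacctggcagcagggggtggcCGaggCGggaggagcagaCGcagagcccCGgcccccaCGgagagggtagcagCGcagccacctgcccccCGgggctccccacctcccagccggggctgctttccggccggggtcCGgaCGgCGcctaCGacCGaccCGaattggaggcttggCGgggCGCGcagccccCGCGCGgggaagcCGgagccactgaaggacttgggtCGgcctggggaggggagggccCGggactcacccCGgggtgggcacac
In the URB1 window the 8 covered CpGs at 30% or more are the first 8 of the upstream end and averaged 52.1% on day 0, while the other 15 averaged 0.37%. None of the 20 covered CpGs of CFAP46 reached 30%, with a mean of 0.0694%. In the LOC105378572 window of the same tile 23 of 25 did, and the mean was 72.2%.

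Levels of the intermediate tiles fell on every day. Taken in order from day 0 to day 7, the mean over the 295 tiles was 48.2, 45.7, 40.6, 27.4, 18.6, 13.3, 9.13 and 7.23%. The SD over tiles was 11.9 points on day 0 and 2.67 points on day 7. No tile stood above 17.05% on day 7, and the lowest stood at 2.21%. With all their reads pooled, day 2 had 42.8% methylated and day 7 had 7.81%, and the Wilson 95% intervals were 42.7 to 42.9% and 7.75 to 7.86%. Reads of a tile are summed over its covered CpGs here and below, so a read that spans several of them counts at each. Days 3, 4 and 5 are shallow. The median member had 167 reads, so counted, on the shallowest of them, and the fewest in any member was 32. Single tiles are therefore read from days 0, 1, 2, 6 and 7.

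**Figure D1:**
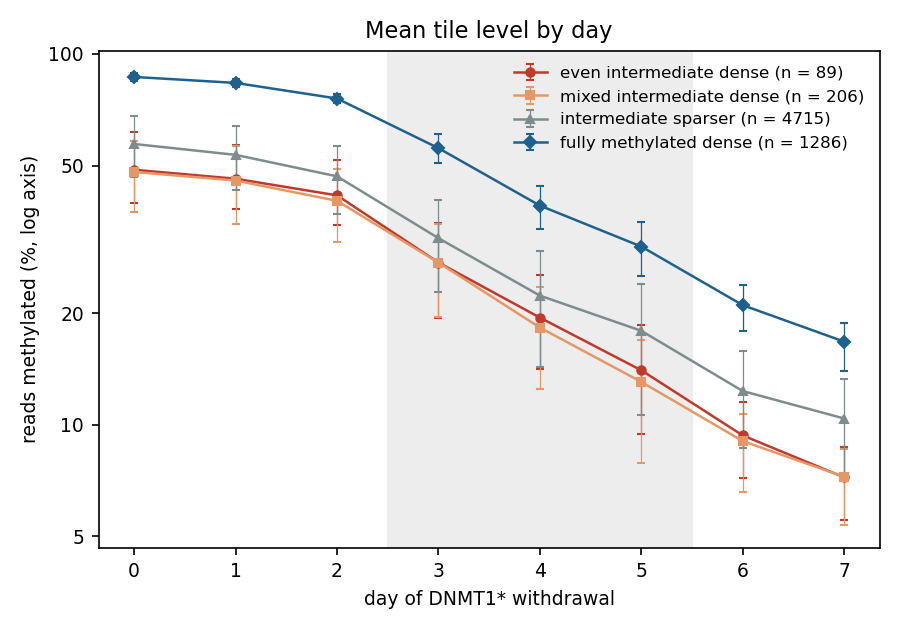
Mean level per tile (% of reads methylated, log axis) against day of DNMT1* withdrawal; bars span the quartiles over tiles and grey marks the shallow libraries of days 3 to 5. Even and mixed intermediate tiles lie on each other, ending at 7.21% and 7.24%, and the gap to fully methylated dense tiles widens with time.

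The comparison with the 1286 fully methylated dense tiles (80% or more on days 0 and 1, read by the same criteria with 20 or more reads on each day) sets their loss beside that of dense tiles that start high. The intermediate tiles lost a larger share of their level per day. The fully methylated tiles averaged 86.7, 83.5, 75.8, 55.7, 38.99, 30.2, 21.0 and 16.7% from day 0 to day 7. As a share of the level of the fully methylated ones, that of the intermediate tiles was 53.5, 49.1, 47.8, 44.1, 43.5 and 43.2% from day 2 to day 7, lower each day. Days 0 and 1 chose the tiles and stay out of the test.

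The rate was taken as the least-squares slope of the natural log of the mean level on day, over days 2 to 7. It was -0.350 ± 0.012 per day in intermediate and -0.307 ± 0.0086 per day in fully methylated dense tiles (SE, n = 6 libraries), which is a loss of 29.5% and 26.4% of the level per day and a halving time of 1.98 and 2.26 days. The slope of the difference in log level was -0.0436 ± 0.0067 per day, with an exact two-sided permutation p over all 720 orders of the 6 days of 0.0028, the lowest attainable. Adjusted for the 5 rate comparisons by the Benjamini-Hochberg method it was 0.0069. Within the deep days 2, 6 and 7 the difference was -0.0457 and within the shallow days 3, 4 and 5 it was -0.0538, where 3 days cannot give an exact p below 0.17 and 0.33. With only tiles of 60 or more listed CpGs the difference was -0.0331 (exact permutation, adjusted p 0.17), and it was -0.0337 with the reads of each class pooled (exact permutation, adjusted p 0.051). Without the library of day 6 it was -0.0427 (exact permutation, adjusted p 0.063). With equal weight for each CpG read on all 8 days it was -0.0455 (exact permutation, adjusted p 0.014). All days come from a single course, so these p values do not cover variation between courses.

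From day 2 to day 7 dense intermediate tiles also fell faster than intermediate tiles of lower CpG density. They averaged 40.6% on day 2 and 7.23% on day 7, against 46.8% and 10.4% in the 4715 tiles with 10 to 39 listed CpGs and the same starting range, whose rate was -0.302 ± 0.016 per day. The difference of dense minus sparser tiles was -0.0477 ± 0.0067 per day (SE, n = 6 libraries; exact permutation p = 0.0028, adjusted 0.0069). It was -0.0429 within days 2, 6 and 7 and -0.0717 within days 3, 4 and 5. With 20 or more reads per CpG, which left 2008 sparser tiles, it was -0.0270 (exact permutation, adjusted p 0.014). With days 0 and 1 included, a value given without a test because they chose the tiles, it was -0.0305 over all 8 days and -0.0300 over the 5 deep libraries. The starting range was not filled alike, with a mean of 48.2% in dense and 57.2% in sparser tiles on day 0. As a share of the sparser level, the dense level rose from 84.4% on day 0 to 86.8% on day 2. It then fell to 69.5% on day 7.

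Within steps of equal starting level the order was the same. From 30 to 70% the rate of the dense tiles hardly moved with the starting level. It was -0.353 ± 0.012 for the 99 tiles at 30 to 40%, -0.348 ± 0.0099 for the 81 at 40 to 50%, -0.347 ± 0.017 for the 55 at 50 to 60% and -0.352 ± 0.013 for the 60 at 60 to 70%. Dense tiles on either side of the range, at 20 to 30% and at 70 to 80%, both had -0.336. Only the highest starting levels stood apart, with -0.3097 ± 0.0087 at 80 to 90% and -0.267 ± 0.0082 at 90 to 100%. From day 2 to day 7 sparser tiles lost more slowly than dense ones in each of the 8 steps, with rates between -0.313 and -0.237. Between day 0 and day 2 the order was the other way in each step. Sparser tiles then kept 80.1% and dense tiles 80.7% at 20 to 30%, and 80.3% and 84.3% at 30 to 40%. Day 0 is among the days that chose the tiles. These steps are a description without a test.

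**Figure D2:**
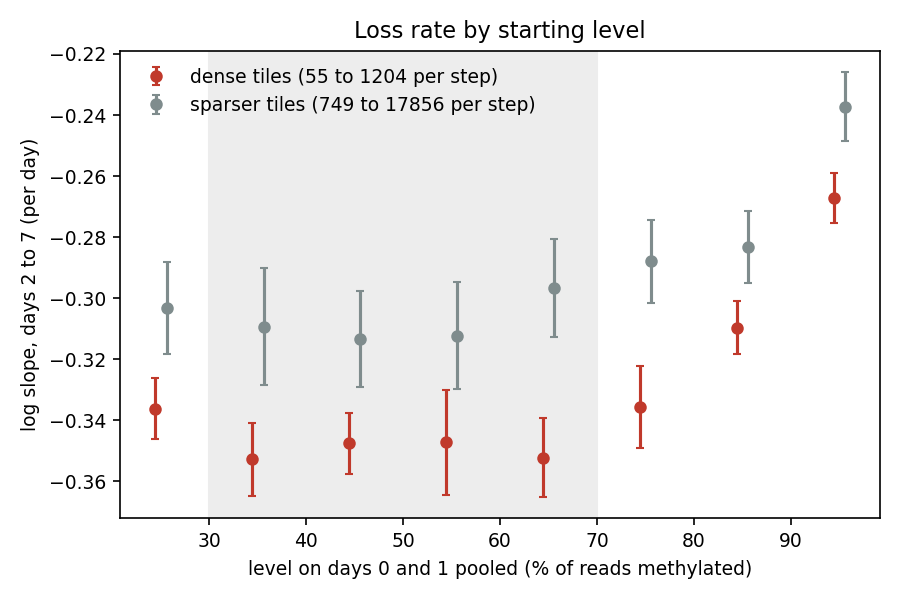
Log slope of the mean level over days 2 to 7 (per day, with its SE over 6 libraries) against the level on days 0 and 1, in steps of 10 points; grey marks 30 to 70%. Dense tiles lie below sparser tiles in every step and are level between 30 and 70%.

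Tile by tile, the share of the day 2 level still present on day 7 had a median of 17.5% in the 295 intermediate tiles (quartiles 15.1 and 19.9%, range 6.86 to 35.3%) and of 22.5% in the fully methylated dense tiles (quartiles 18.4 and 24.9%). The upper quartile of the intermediate tiles thus lay below the median of the fully methylated ones. A tile was called fast where its level fell more than 8-fold from day 2 to day 7, so that less than 12.5% was kept, and slow where it fell less than 2-fold. Of all 38184 autosomal tiles with 10 or more covered CpGs and 20% or more on day 2, 1.66% were fast and 0.0314% slow. Of the intermediate dense tiles 36 of 295 were fast, or 12.2%, and 0 were slow, against 18 fast and 1 slow among 1290 fully methylated dense tiles. Of the intermediate sparser tiles 219 of 4829 were fast, or 4.54%. With day 6 in place of day 7, 2 members were fast, or 0.678%, against 0.422% of all tiles.

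**Figure D3:**
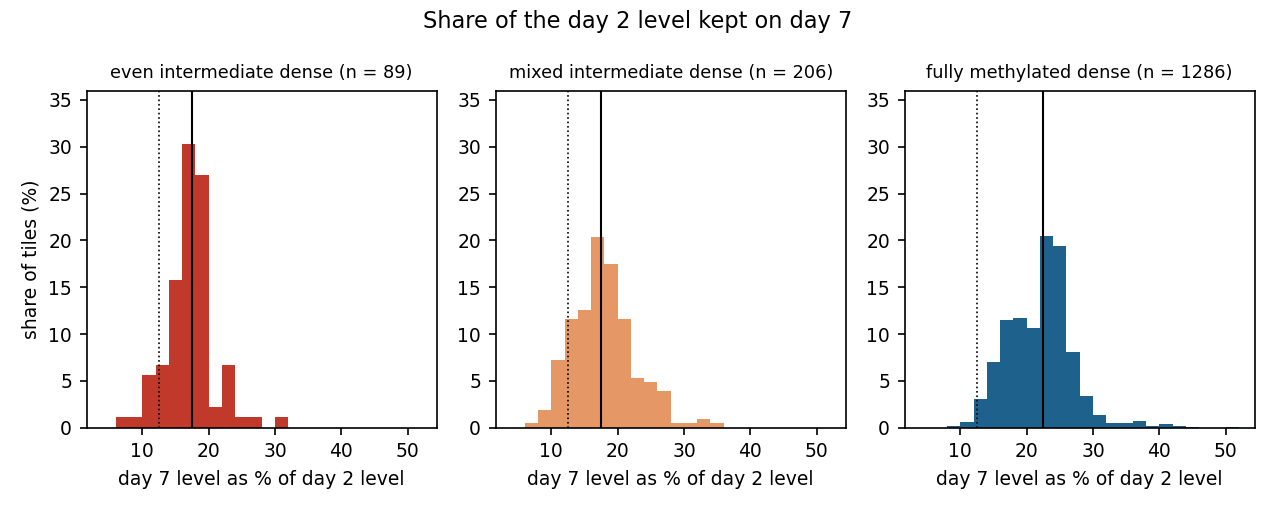
Histograms of the day 7 level as % of the day 2 level per tile, as % of the tiles of each class; the solid line is the median and the dotted line 12.5%, below which a tile is called fast. Even and mixed intermediate tiles share the median of 17.5%, against 22.5% in fully methylated dense tiles.

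The share kept varied little with other features of the members. Its median was 18.0% in the 148 tiles with 40 to 49 listed CpGs, 17.3% in the 77 with 50 to 59 and 16.9% in the 70 with 60 or more. Across the 4 steps of starting level it lay between 17.3 and 17.7%. The 53 tiles with a gene start placed in them had 18.8%, and the 233 others off chromosome 8, where no promoter was searched, 17.5%. By chromosome the median ran between 13.9% on chromosome 13, with 4 members, and 19.3% on chromosome 15, with 9. Members lie on all 22 autosomes, from 2 on chromosome 18 to 36 on chromosome 1. These are 0.889% and 3.53% of the covered dense tiles of these chromosomes, and the highest share was 4.43% on chromosome 19.

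The extremes were named among members with 200 or more reads on days 2 and 7, which all 295 had. The most was kept in a mixed tile at chr17:18576001-18577000 (hg19), 8.63 kb from the start of FOXO3B, which had 48.3, 21.3 and 17.05% on days 2, 6 and 7 and kept 35.3%. A mixed tile at chr19:39056001-39057000 kept 33.1%, and RefSeq lists RYR1, the calcium release channel of skeletal muscle, between the placed starts that flank it, FAM98C and MAP4K1-AS1. It was followed by mixed tiles at chr15:100346001-100347000 with 32.2% and chr1:1476001-1477000 with 30.8%, and by an even tile at chr19:51198001-51199000 with 30.3%. In the last of these the levels of days 6 and 7 were out of order, at 6.19% and 9.40%. The SD of its CpG levels was 13.8 points on day 0 and 19.3 points on day 1.

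The least was kept at the start of CHFR, a ubiquitin ligase of the mitotic checkpoint, in a mixed tile at chr12:133464001-133465000. Its level was 37.1, 32.2, 4.14 and 2.21% on days 0, 2, 6 and 7, so that 6.86% of the day 2 level was left. The Wilson 95% interval of the last level was 1.40 to 3.46%. Its methylation lay on the side away from the CHFR start, where it stood at 67.8% on day 0 and 4.32% on day 7. An even tile at chr19:46997001-46998000 kept 7.76%. The SD of its CpG levels was 14.9 points on day 0 and 22.2 points on day 1, so the name even rests on day 0. A mixed tile at chr9:138942001-138943000, between UBAC1 and NACC2, kept 8.39%. An even tile at chr17:79315001-79316000, 3.79 kb from the start of RENO1, kept 9.39%, and a mixed tile at chr19:54976001-54977000, 1.04 kb from that of LENG9, kept 9.51%. Of the 10 extremes, 7 are mixed, much as 206 of all 295 members are.

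In even tiles most CpGs were partly methylated, and part of the remaining spread was counting error, with a median of 6.73 points on day 0. After subtraction of that error the median SD between the CpGs of an even tile was 9.47, 10.1, 8.49, 2.88 and 1.87 points on days 0, 1, 2, 6 and 7. In mixed tiles it was 28.3, 27.3, 23.7, 5.37 and 4.48 points on the same days. Day 0 is the day that divided them. On day 1, which did not enter the division, the SD as used for the division was below 15 points in 63 of 89 even tiles and 10 of 206 mixed tiles, and the corrected SD in 80 and 31. Relative to the level of the tile, the corrected SD was 21.6, 31.8 and 25.2% on days 1, 6 and 7 in even tiles. In mixed tiles it was 55.2, 67.8 and 65.6%.

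The evenest tile on day 1 lies at chr12:52301001-52302000, in an interval in which RefSeq lists ACVRL1, an endothelial receptor of the TGF-beta family. Its 39 covered CpGs stood between 39.2 and 66.0% on day 0, and between 32.6 and 61.7% on day 2. All of them stood between 0 and 16.7% on day 7. The others of the 5 evenest lie at chr3:48693001-48694000, in an interval with CELSR3, an adhesion receptor of the cadherin superfamily, at chr13:50070001-50071000, at chr6:149772001-149773000, between the placed starts of TAB2 and PPIL4, and at chr8:637001-638000. Their levels were 33.1, 42.7, 35.6 and 33.5% on day 2 and 4.84, 4.66, 6.23 and 3.77% on day 7, in that order.

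**Figure D4:**
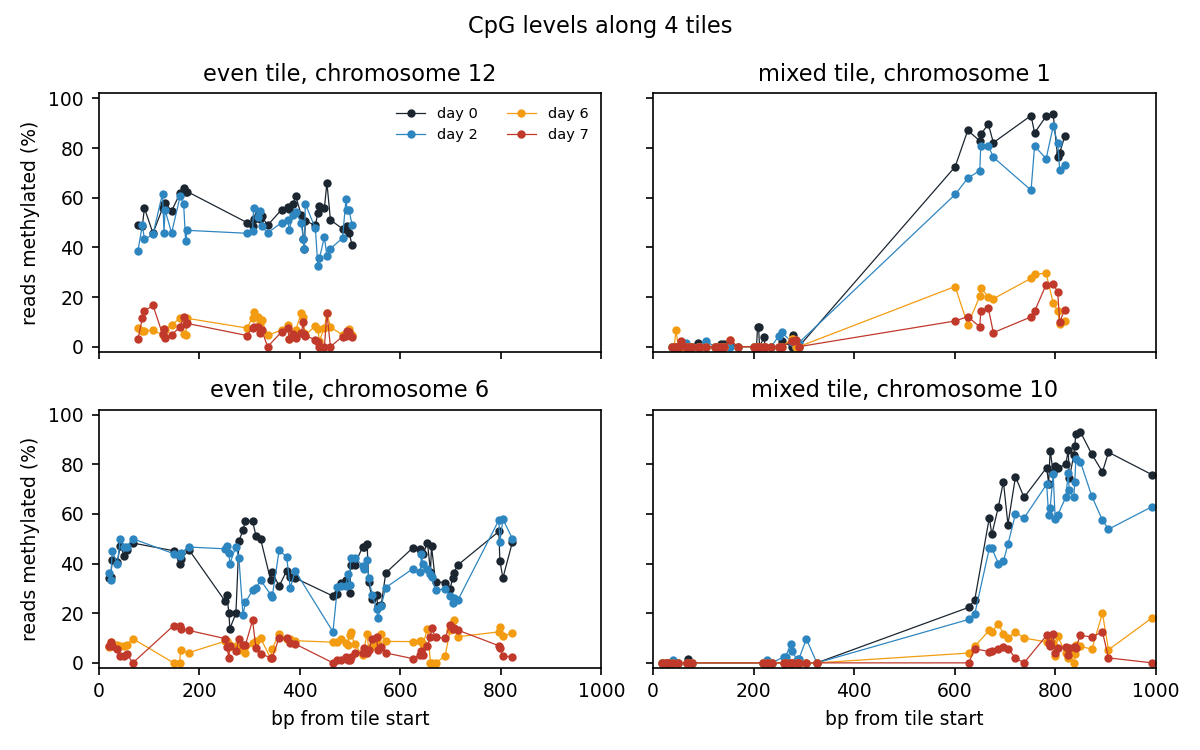
Level of each covered CpG (% of reads methylated) against its distance from the tile start (bp) on days 0, 2, 6 and 7, in 2 even tiles (left) and 2 mixed tiles (right); lines join neighbouring covered CpGs. The CpGs of the even tiles stand between 13.8 and 66.0% on day 0 and at 17.1% or less on day 7, and those of the mixed tiles are near 0 on the left and high on the right, with an abrupt change in the tile on chromosome 1 and a climb through intermediate CpGs in that on chromosome 10.

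In part of the mixed tiles the high and low CpGs lay on opposite sides of a single position. The best single cut by position took a median of 71.1% of the variance of the day 1 levels in mixed tiles, against 27.1% in even tiles, and 80% or more in 76 mixed tiles and 1 even tile. This share was not corrected for counting error. On day 1 the median error was 9.38 points beside an SD of 13.3 in even tiles, and 7.88 beside 28.4 in mixed tiles. The smaller share in even tiles therefore does not show that they lack a step. These 76 mixed tiles, 36.9% of 206, are called sharp here. The sharpest was chr1:1363001-1364000, in an interval with ANKRD65 and 7.07 kb from the start of VWA1, a matrix protein, where 98.6% of the variance was taken. Its 13 CpGs on the high side stood at 84.99, 74.9 and 14.6% on days 0, 2 and 7, and its 34 on the low side at 0.990, 0.541 and 0.358%.

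The next sharpest tiles lie beside gene starts. The tile chr22:21983001-21984000 is 0.31 kb from the start of YDJC, and its high side stood at 88.0% on day 0 and 13.2% on day 7. The tile chr22:44893001-44894000 is 0.112 kb from that of RTL6, a gene derived from a retrotransposon, with 82.7% and 12.2%. The tile chr5:1294001-1295000 is 0.182 kb from the start of TERT, the catalytic subunit of telomerase, with 85.7% and 8.68%. The tile chr9:214001-215000 holds the start of DOCK8, a guanine nucleotide exchange factor of leukocytes, with 83.0% and 12.5%. The low sides of these tiles held 0.457% or less on day 0 and 0.333% or less on day 7.

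Pooled over each set of mixed tiles, both sides lost most of their methylation. In single tiles the low side could stand near 0 throughout, without a fall. It held 0% on day 0 and 0.333% on day 7 in the tile beside TERT, and 0.195% and 0.243% in that beside YDJC. Over the 76 sharp tiles the high side held 77.5, 74.5, 64.8, 42.7, 28.2, 18.996, 13.3 and 10.9% of reads methylated from day 0 to day 7. The low side held 6.94, 6.57, 5.66, 3.26, 2.60, 2.24, 1.15 and 1.26%. Day 7 kept 16.7% of the day 2 level on the high side and 22.3% on the low side. The low side was at 8.95% of the high side on day 0 and at 11.6% on day 7, with values between 7.63 and 11.8% on the days between. Day 1 placed the cut, so the sizes of the steps on days 0 and 1 are a description. For comparison, dense tiles below 2% on days 0 and 1 averaged 0.307% on day 0 and 0.130% on day 7. In the 130 other mixed tiles the high side held 66.6% and the low side 38.0% on day 0, and 10.1% and 6.55% on day 7.

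**Figure D5:**
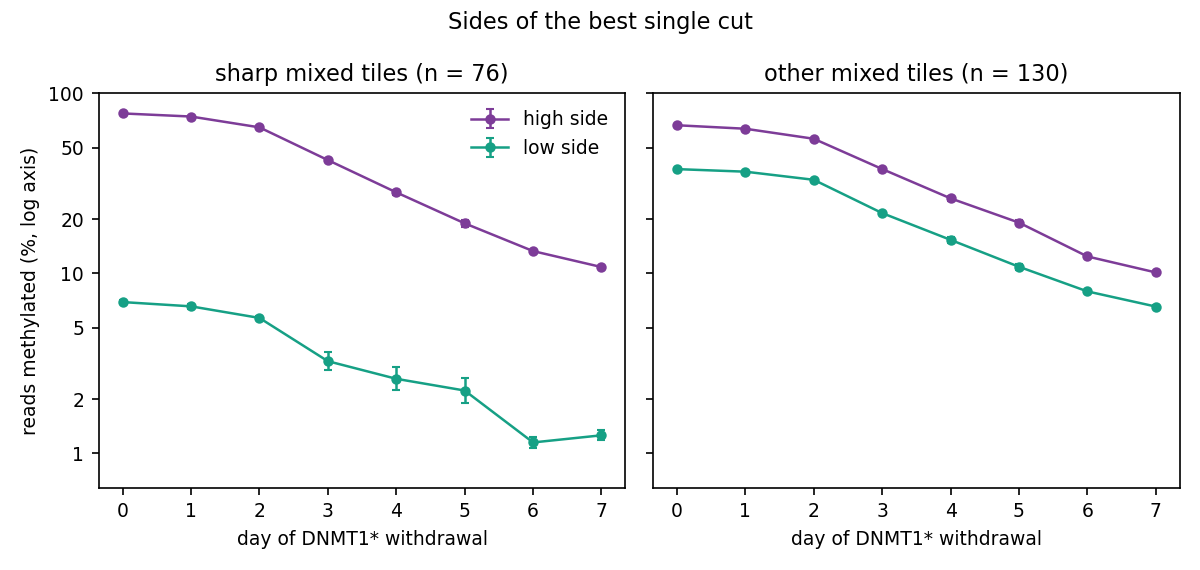
Reads methylated (%, log axis, Wilson 95% intervals) on the high and the low side of the best single cut by day, pooled over 76 sharp and 130 other mixed tiles. Both sides fall from day 0 to day 7. In sharp tiles the high side ends at 10.9% and the low side at 1.26%, above its 1.15% on day 6.

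The surroundings followed the same division. Of 43 sharp tiles with both neighbouring 1-kb tiles read, 25 had a neighbour at 80% or more on one side and at 20% or less on the other. Of all mixed tiles this held for 35 of 106, and of even tiles for 0 of 44. Even tiles most often had neighbours between 20 and 80% on both sides, in 17 of 44. Among fully methylated dense tiles 8 of 568 had a high and a low neighbour, and among unmethylated ones 298 of 3788. A gene start was placed in 53 of 286 members off chromosome 8, or 18.5%, against 4.13% of fully methylated and 49.2% of unmethylated dense tiles. In 22 sharp tiles with a start, it lay on the low side in 20, at a median of 352 bp from the cut. The starts of AHRR, the repressor of the aryl hydrocarbon receptor, and PROB1 lay on the high side; these genes were picked out after their values were seen.

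Even and mixed tiles, for all that, lost methylation at rates that could not be told apart. Even tiles had -0.352 ± 0.0098 per day and mixed tiles -0.350 ± 0.014 per day, and the difference of -0.0021 ± 0.0082 was within its SE (n = 6 libraries; exact permutation p = 0.77, adjusted 0.87). The difference was larger with 20 or more reads per CpG, at -0.0131 ± 0.0044 (SE, n = 6 libraries; exact permutation p = 0.056, adjusted 0.069), and with 30 or more listed CpGs, at -0.0142 ± 0.0091 (exact permutation, adjusted p 0.24). Its sign was positive within days 3, 4 and 5, at 0.0357, and negative within days 2, 6 and 7, at -0.0052. The median share of the day 2 level kept on day 7 was 17.5% in both kinds, and 9 of 89 even and 27 of 206 mixed tiles were fast, 10.1% and 13.1%. The same held for CpGs of like level. The 2993 CpGs of even tiles at 30 to 70% on day 0 held 43.6% on day 2 and 7.69% on day 7, and the 2956 such CpGs of mixed tiles 42.4% and 7.47%. Their rates differed by 0.0013 ± 0.0074 per day (exact permutation p = 0.87, adjusted 0.87).

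The highly methylated CpGs of mixed tiles were then set against CpGs of fully methylated dense tiles chosen by the same limit on day 0. The 1993 CpGs of mixed tiles at 80% or more on day 0 held 87.2, 73.5, 17.4 and 14.2% on days 0, 2, 6 and 7. The 46565 such CpGs of fully methylated dense tiles held 89.1, 77.5, 21.2 and 16.9%. On each of these days the CpGs of mixed tiles were lower, from day 0 onward, and the part of the unequal starting level in the rates was not tested. Their rate was -0.336 ± 0.014 against -0.311 ± 0.0088 per day, a difference of -0.0250 ± 0.0074 (SE, n = 6 libraries; exact permutation p = 0.019, adjusted 0.032). Within days 2, 6 and 7 it was -0.0273 and within days 3, 4 and 5 it was -0.0369. This call rests on single choices: the difference was -0.0139 with 20 or more reads per CpG (exact permutation, adjusted p 0.069), -0.0198 with tiles moved by 500 bp (exact permutation, adjusted p 0.16) and -0.0156 without the library of day 2 (exact permutation, adjusted p 0.19). Without any single library of days 3 to 6 the adjusted p of the exact permutation test lay between 0.069 and 0.15.

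Lists of genes known for methylated or protected promoters were looked up among the placed starts. Most genes of each list had no placed start. Placed were 19 of 60 imprinted, 11 of 49 germline, 7 of 23 pluripotency, 29 of 72 lineage regulator and 2 of 53 protocadherin genes. Of the 9 dense tiles that hold a placed start of an imprinted gene, 1 was a member and 8 were unmethylated. It is the even tile chr6:144329001-144330000 at PLAGL1 and HYMAI, genes of an imprinted region on chromosome 6. Its level was 39.8, 33.6, 29.5, 8.45 and 5.47% on days 0, 1, 2, 6 and 7, so that 18.5% of the day 2 level was kept, close to the median member. Its SD of 14.9 points on day 0 was the nearest of all even tiles to the limit of 15. Of the dense tiles with a placed start of a germline gene 0 of 4 were members, and 4 were fully methylated. For pluripotency genes it was 0 of 6, with 5 unmethylated, and for lineage regulators 0 of 22, with 22 unmethylated. Over all placed starts it was 53 of 4270, or 1.24%, with 4131 unmethylated and 51 fully methylated. An unmethylated tile is thus the common case at a placed start and does not set a list apart. For the protocadherin list, with 2 genes placed, 0 dense tiles held a placed start.

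Some members lie in intervals that hold imprinted genes. By RefSeq's gene order, 7 of the 281 members with a placed start on either side have an imprinted gene of the list at or between those starts, 4 of them even and 3 mixed. This is 2.49%, against 1.15% of the 10056 such dense tiles. The 7 include the tile at PLAGL1, and without the 2 that hold a placed start themselves 5 of 229 members and 67 of 5806 dense tiles remain, 2.18% and 1.15%. These counts are a description without a test. The even tile chr20:57429001-57430000, 12.3 kb from the placed start of GNAS, a stimulatory G protein subunit, had 37.7% on day 2 and 6.93% on day 7. The even tile chr7:50850001-50851000, 9.57 kb from that of GRB10, an adaptor of insulin signalling, had 36.1% on day 2 and 5.10% on day 7. The even tile chr11:2721001-2722000, between TSSC4 and KCNQ1DN, had 35.4% on day 2 and 5.77% on day 7. In the SD of their CpGs they stood at 5.81, 8.78 and 13.8 points on day 0, in that order. The mixed tiles chr20:57267001-57268000 and chr20:57268001-57269000, of which the first holds the start of NPEPL1, and chr11:2292001-2293000 had 30.6, 35.5 and 46.4% on day 2 and 6.13, 7.14 and 7.60% on day 7. The gene nearest to a tile in this order is not shown to be the one whose methylation was read.

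Some even tiles belong to repeated DNA. A tile was called repeated where 50% or more of its runs of 8 CpG gaps occur elsewhere among the listed CpGs. This held for 20 of 89 even tiles and 9 of 206 mixed tiles, against 26.4% of fully methylated and 1.07% of unmethylated dense tiles. The largest group lies at chr1:228746001-228783000, with 13 members, 10 of them even, where the commonest distance between equal runs was 2241 bp. It lies between RNF187 and RHOU, where RefSeq lists 17 RNA5S genes, the tandem genes of the 5S ribosomal RNA, at a median spacing of 2241 bp in its own build. These 13 tiles had 59.03 to 70.5% on day 0, 48.0 to 59.5% on day 2 and 8.34 to 11.2% on day 7. By tile they averaged 218 to 302 reads per CpG on day 0, where the median of all members was 57.8, and whether reads of several copies were counted in 1 tile was not tested.

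A second group, at chr1:161419001-161442000 between DEDD and OLFML2B, has 3 even tiles and a commonest distance of 7381 bp. Its tiles had 42.4 to 46.0% on day 0 and 6.004 to 6.48% on day 7. Another group, at chr9:115822001-115845000 between ZFP37 and FKBP15, has 3 even tiles with 62.2 to 68.0% on day 0 and 10.1 to 10.8% on day 7. The loss did not set these tiles apart. Repeated members had a rate of -0.351 ± 0.015 per day and the other 266 members -0.350 ± 0.012, and the shares kept had a median of 17.5% in both.

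At the limits of the rule, the members just inside 30% had 30.1 and 30.2% on days 0 and 1, and the tiles just outside 29.9 and 29.4%. Just inside 70% stood 69.97 and 69.89%, and just outside 70.05 and 70.08%. The even tiles nearest to the limit of 15 points had 14.95 and 14.92, and the mixed ones 15.04 and 15.04. On day 7 the tiles named by these limits stood between 1.497 and 13.0%.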

How the data were processed

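RRBS was performed on genomic DNA of 8 libraries, 1 per day, per the labels' protocols. Per the submitters' processing notes the genome build was hg19; neither an aligner nor a methylation caller is named there. The deposited score of each CpG equals its share of methylated reads in 100% of lines, so the deposited read counts beside it were used. Days 0, 1, 2, 6 and 7 hold 77691782 to 161534152 CpG read calls (median 21 to 44 reads per CpG) and days 3, 4 and 5 hold 12359218 to 15156251 (median 4). The labels give no batch.

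Tile levels are methylated over all reads of the covered CpGs, with 20 or more reads per tile on each day, and class means weight tiles equally. Rates over days 2 to 7 were tested by exact permutation of the days. Wilson 95% intervals cover counting error only and take the call of each read at each CpG as independent. Calls on the same read are linked, and the reads carry no molecular identifiers and may copy 1 molecule. The intervals can therefore be too narrow. Tiles of a class share libraries, so no test was made over tiles. A tile pools whichever CpGs were read, and in mixed tiles the balance of high and low CpGs can shift between days.

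No hg19 annotation was used. Of 17893 RefSeq promoters with enough CGs, 9900 were placed once by CpG spacing (12 or more listed CpGs, each on a CG), and 15 out of RefSeq gene order were dropped. Mirror images of the spacings placed 87. Chromosome 8 was not searched.

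Named tiles are the 5 evenest on day 1, the 5 sharpest mixed tiles, the 5 with the most and the 5 with the least kept, those at the rule's limits and those at listed genes. The members and lists were chosen with earlier results of these data known, among them faster loss of intermediate than of highly methylated CpGs, so the present rates are not independent support for it. On simulated reads at the real depths, a planted rate difference of -0.04 between intermediate and fully methylated tiles came back as -0.0362, and 0 planted as 0.0031. The simulated calls were independent and had no variation between libraries, so this does not cover linked calls or differences between libraries. Analyses used Python 3.11.15, numpy 2.4.6, pandas 2.3.3 and statsmodels 0.14.6. Read minimums, weighting, an upper coverage limit, CpG number, starting range, evenness limit, tile grid, background and left-out days were varied; the deep libraries alone, the removal of repeated tiles and equal weight per CpG were added after seeing the data.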

Additional observations from a re-analysis of the deposited data

Results flagged for a closer look

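Differences between groups of tiles under the same withdrawal stood out in 3 rate comparisons. The rate of intermediate dense minus fully methylated dense tiles was -0.0436 per day, that of intermediate dense minus intermediate sparser tiles -0.0477 per day, and that of highly methylated CpGs in mixed minus fully methylated dense tiles -0.0250 per day. Each passed the exact permutation test of the difference after adjustment over the 5 comparisons. Of these, the last kept its call in 7 of its 17 tested alternatives.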

How the results depend on the processing

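The rate difference of intermediate and fully methylated dense tiles was negative in all 17 tested alternatives, -0.0525 to -0.0331, and did not pass with pooled reads (-0.0337), with 60 or more listed CpGs (-0.0331) and, among days left out in turn (-0.0525 to -0.0354), without day 6. Against sparser tiles it was negative and passed in all 16, -0.0577 to -0.0270, the smallest with 20 reads per CpG. Fits that include days 0 and 1, which chose the tiles, carry no test; against sparser tiles they gave -0.0305 over all 8 days and -0.0300 over the deep libraries. For highly methylated CpGs it was negative in all 17 and did not pass with 5 reads (-0.0266), 20 reads (-0.0139), 60 or more listed CpGs (-0.0277), an evenness limit of 10 points (-0.0218), tiles moved by 500 bp (-0.0198), or without any of days 2 to 6 (days left out gave -0.0361 to -0.0156). The difference of even and mixed tiles changed sign with 60 or more listed CpGs (0.0064), a range of 40 to 60% (0.0062), no repeated tiles (0.0010) and equal weight per CpG (0.0012), was most negative with 20 reads (-0.0131) and 30 or more listed CpGs (-0.0142), and ran from -0.0064 to 0.0074 with days left out. That of CpGs at 30 to 70% changed sign with 5 reads (-0.0020), 20 reads (-0.0026), 30 (-0.0035) or 60 (-0.00055) or more listed CpGs, corrected SDs (-0.0032) and moved tiles (-0.0011), and ran from -0.0064 to 0.0104 with days left out. Fast members numbered 2 with day 6 in place of day 7. The cause was not tested. No paired analysis was possible because each day has 1 library and replicate numbers pair nothing. Depth limits the shallow days 3 to 5, where single tiles were not read.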
